A study of Rattus norvegicus with 77 samples.

Results

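Sperm RNA of rats that had been exposed to 2,5-hexanedione (HD) and then left to recover was compared with sperm RNA of rats taken at the end of the exposure. The comparison holds 39 of the 77 arrays of the series, 20 of the HD-recovery group and 19 of the HD group, with 1 array per rat. All 29214 probe sets were tested, and the genes described are the 14506 that had at least 1 probe set with a single gene symbol in the platform annotation, each by the probe set of highest mean where there were several. Adult male Fischer 344 rats, an inbred strain, drank water with 0.33% HD for 3 months in both groups. The HD group was killed at that point, and the HD-recovery group was killed after 3 more months on plain water. The 20 water rats and 18 water-recovery rats had no HD and followed the same 2 schedules. Recovery rats were therefore 3 months older than the rats they were compared with, and within the exposed rats recovery and age cannot be told apart. The water and water-recovery rats, which share no array with the exposed rats, give the same span without HD.

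Sertoli cells nurse the developing germ cells of the testis, and HD injures them through their microtubules. A sperm makes almost no new RNA, so the transcripts that it carries are left from the spermatid it came from, and sperm collected from the cauda of the epididymis report on a testis some time earlier. The recovery span was longer than a rat germ cell needs to become a sperm. Other cells can add RNA to a sperm pellet, among them leukocytes, red blood cells, connective tissue and the epithelium of the epididymis, although a lysis buffer had been used against somatic cells. In such RNA from many cells, fewer cells of a type and less RNA per cell cannot be told apart.

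Sperm markers and markers of other cells were both measured in the 39 arrays, whose medians lay between 6.51 and 6.78 on the deposited log2 scale. Prm1, which codes for the protamine that packs sperm DNA, lay between 12.15 and 13.69, and Odf1, an outer dense fibre protein of the tail, between 13.43 and 14.17. The leukocyte surface protein Ptprc (CD45) ran from 7.06 to 9.08, and Hbb, a haemoglobin chain of red blood cells, from 8.93 to 12.62.

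Arrays within a group differed widely. An array was taken to stand apart when its median correlation with the other arrays of its group was under the group median by more than 3 scaled median absolute deviations. By this rule 4 HD arrays (replicates 3, 4, 5 and 14) and 3 HD-recovery arrays (replicates 2, 9 and 16) stood apart, with replicate 5 of HD the farthest at a median correlation of 0.83. All were kept, and results are given with and without them. Of the HD arrays, these 4 held the 4 highest mean levels of the qRT-PCR candidates described further on, Clu aside, and replicates 2 and 9 of HD-recovery held the lowest levels of their group, so leaving them out takes away values on the side of the other group.

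After recovery 9 probe sets, each of a different gene, were higher than in the HD group and none was lower (limma, Storey q under 0.05, 0.0308% of the probe sets tested). At an unadjusted p under 0.05 there were 1139 higher (3.9%) and 1066 lower (3.65%), together 7.55% of the probe sets. The 9 genes were Ccl5, Wdr7, Armc2, Ptar1, Klf12, Nars2, Gli2, Rps6ka5 and Ptdss1, with increases of 1.17-fold to 1.51-fold. HD had the lowest mean of the 4 groups for each of the 9. The direction rests on the sample labels. The study describes most of its altered transcripts as raised in exposed rats, whereas in the deposited values 27 of the 28 measured qRT-PCR candidates had a lower mean in arrays labelled HD than in arrays labelled water. The other candidate, Clu, had a higher mean in arrays labelled HD, whereas the study gives it as lowered on its arrays. Each group keeps the name on its labels. Of the 9 genes, 7 (all but Ccl5 and Ptdss1) stand in the study's table of transcripts altered by exposure, which was drawn from these HD arrays, so their difference from HD here is not independent of that table.

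Promoters of the genes that rose together are shown for 3 of them, chosen because Armc2, Gli2 and Rps6ka5 code for a sperm tail protein, a transcription factor and a kinase. They run from 250 bases before to 50 bases after the start of the RefSeq transcript, 5′ to 3′ along the gene, and capitals mark matches to the short motifs searched. Armc2 lies on chr20:47083836-47084135, Gli2 on chr13:32716369-32716668 and Rps6ka5 on chr6:125735706-125736005 of GRCr8, all on the minus strand.
Armc2 promoter: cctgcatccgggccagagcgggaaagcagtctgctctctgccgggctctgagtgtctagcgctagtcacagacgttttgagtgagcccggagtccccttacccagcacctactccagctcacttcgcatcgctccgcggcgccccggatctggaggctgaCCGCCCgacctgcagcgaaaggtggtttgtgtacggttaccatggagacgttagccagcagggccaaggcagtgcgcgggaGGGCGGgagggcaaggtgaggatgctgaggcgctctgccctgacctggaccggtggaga
Gli2 promoter: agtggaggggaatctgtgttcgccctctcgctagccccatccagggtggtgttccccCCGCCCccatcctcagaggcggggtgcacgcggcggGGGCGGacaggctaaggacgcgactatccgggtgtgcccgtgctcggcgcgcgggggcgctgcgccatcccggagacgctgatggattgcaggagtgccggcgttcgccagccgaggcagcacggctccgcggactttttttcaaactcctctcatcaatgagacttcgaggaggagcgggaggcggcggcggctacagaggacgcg
Rps6ka5 promoter: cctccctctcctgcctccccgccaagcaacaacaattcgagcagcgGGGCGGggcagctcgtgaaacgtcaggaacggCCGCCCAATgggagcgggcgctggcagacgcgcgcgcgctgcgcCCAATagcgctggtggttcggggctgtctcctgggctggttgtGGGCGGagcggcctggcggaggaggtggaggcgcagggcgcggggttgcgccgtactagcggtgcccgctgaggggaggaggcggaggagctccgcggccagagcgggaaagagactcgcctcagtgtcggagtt
Both strands were searched for GGGCGG (the GC box), CCAAT (the CCAAT box), TATAAA (the TATA box), TGACGTCA (the cyclic AMP response element), and the cores of an interferon response element and of an NF-kB site. Of the 9 genes, 7 had a RefSeq promoter (Ccl5 and Ptdss1 had no entry), and 5 of the 7 held a GC box, which 33.1% of all 33469 promoters hold. A CCAAT box was in 1 of the 7, that of Rps6ka5, where 1 of its 2 copies shares 2 bases with a GC box, and in 37.5% of all promoters. None of the other motifs matched in the 7 promoters. They match in 14.2% (TATA box), 1.83% (cyclic AMP response element), 3.92% (interferon element core) and 1.3% (NF-kB core) of all promoters.

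Ccl5, a chemokine by which T cells and natural killer cells draw in other leukocytes, had the largest increase of the 9. Its log2 values ran from 8.48 to 9.89 with a median of 8.94 in HD and from 8.90 to 10.29 with a median of 9.58 in HD-recovery. The groups overlapped, and 17 of 20 HD-recovery arrays lay above the HD median. The log2 difference was 0.59 (SE 0.12, q = 0.040 from limma), or 1.51-fold, and Ccl5 was the only gene past both q under 0.05 and a fold over 1.5 (0.00342% of the probe sets). The mean was 9.55 in water-recovery and 9.36 in water. It is a leukocyte marker, and the mean level of the whole leukocyte list, given further on, was higher in the same arrays.

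A kinase of transcription factors and zinc finger proteins made up 3 of the 9. Gli2, a zinc finger factor that carries out Hedgehog signals, ran from 6.10 to 6.82 (median 6.41) in HD and from 6.55 to 6.91 (median 6.66) in HD-recovery, and 16 of the 19 HD arrays were below the lowest HD-recovery array. Its log2 difference was 0.28 (SE 0.05, q = 0.039), and it was the only 1 of the 9 to pass when array medians were centred. Klf12, a zinc finger repressor, ran from 6.79 to 7.51 (median 7.00) in HD and from 6.89 to 7.67 (median 7.40) after recovery. The ranges of Klf12 overlapped, 18 HD-recovery arrays were above the HD median, and the log2 difference was 0.34 (SE 0.06, q = 0.039). Rps6ka5 (MSK1), a kinase that phosphorylates CREB and histone H3, ran from 5.79 to 6.35 (median 6.12) in HD and from 5.99 to 6.64 (median 6.44) after recovery, with 12 HD-recovery arrays above the highest HD array and a log2 difference of 0.28 (SE 0.05, q = 0.039). The medians of Rps6ka5 in both groups and of Gli2 in HD were below the lowest array median, 6.51. Such levels do not by themselves show that a transcript was present.

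Armc2, an armadillo repeat protein needed to build the axoneme of the sperm tail, ran from 8.43 to 9.38 (median 8.74) in HD and from 8.60 to 9.72 (median 9.17) in HD-recovery. The log2 difference was 0.41 (SE 0.08, q = 0.043), and 18 of 20 HD-recovery arrays were above the HD median. Of its other probe sets, 1 had 0.14 (q = 0.66) and 1 had 0.52 (q = 0.47), neither of which passed. Wdr7, a WD repeat partner of the vesicle proton pump, ran from 6.77 to 7.89 (median 7.14) in HD and from 7.12 to 8.13 (median 7.70) after recovery, a log2 difference of 0.47 (SE 0.08, q = 0.035). A single HD array of Wdr7 lay above the HD-recovery median.

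The remaining 3 code for enzymes or relatives of enzymes. Nars2, which charges mitochondrial tRNA with asparagine, had values from 6.62 to 7.16 (median 6.86) in HD and from 6.86 to 7.70 (median 7.19) in HD-recovery, and 11 HD-recovery arrays exceeded every HD array. Ptdss1, a phosphatidylserine synthase, had values from 6.90 to 7.50 (median 7.11) in HD and from 7.13 to 7.51 (median 7.37) after recovery, and all 20 HD-recovery arrays were above the HD median. Ptar1, which resembles the alpha subunit of protein prenyltransferases, had values from 6.99 to 7.90 (median 7.28) in HD and from 7.08 to 7.97 (median 7.68) after recovery. All 3 pairs of ranges overlapped. The log2 differences were 0.30 for Nars2 (SE 0.06, q = 0.049), 0.23 for Ptdss1 (SE 0.05, q = 0.040) and 0.35 for Ptar1 (SE 0.07, q = 0.043).

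**Figure D1:**
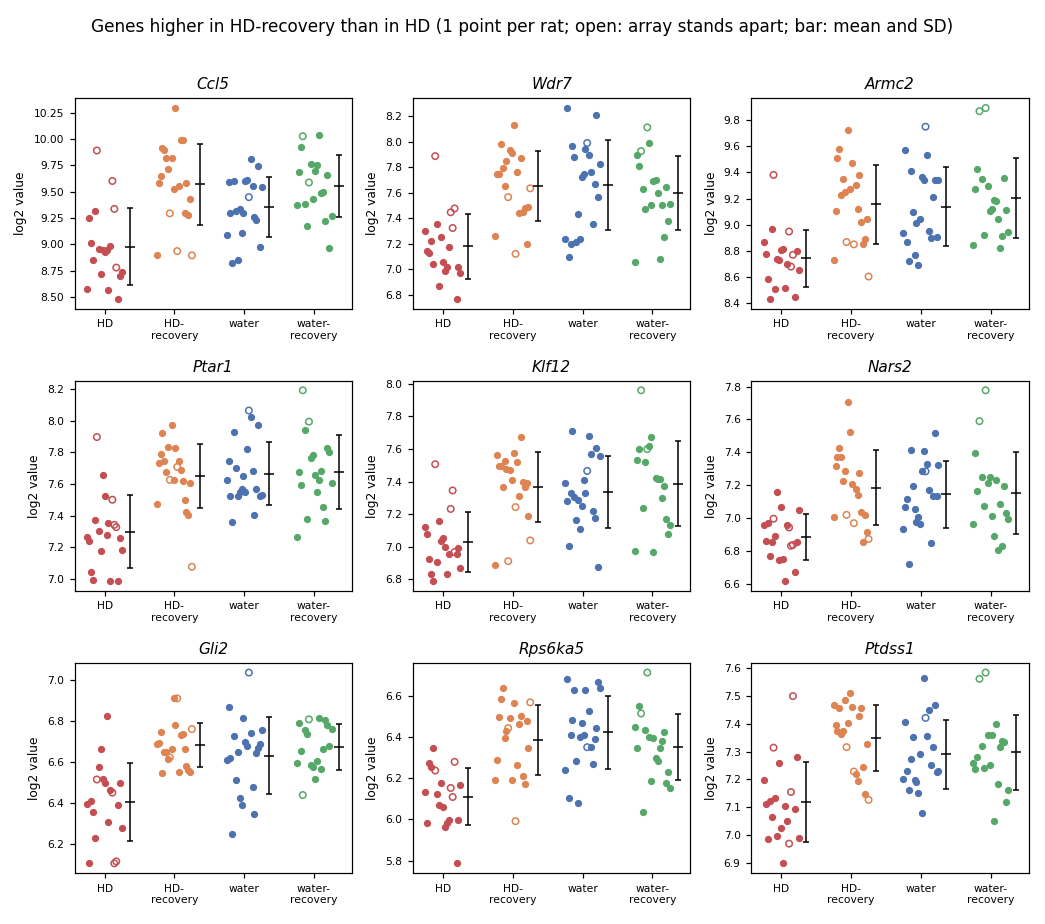
Log2 value (y axis) of the 9 genes that were higher in HD-recovery than in HD, by group (x axis), with 1 point per rat, open circles for arrays that stand apart, and the mean and SD as bars. HD has the lowest mean in every panel and overlaps with HD-recovery in every panel.

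How many genes passed depended on single arrays and on sets of arrays. In fits that each left out a single array, between 0 and 88 probe sets passed, with 0 in 13 of the 39 fits and 88 without replicate 14 of HD. Wdr7 passed in 26 of these fits, Gli2 in 24, Rps6ka5 in 22, Klf12 in 17, Ptar1 and Ptdss1 in 14, and Ccl5, Armc2 and Nars2 in 12. Without the 7 arrays that stood apart (15 HD and 17 HD-recovery arrays) 16922 probe sets passed, 57.9% of those tested, with 5258 higher and 11664 lower, and the median log2 difference over all probe sets was −0.07. With Benjamini-Hochberg adjustment in place of Storey's method, 10604 passed in these 32 arrays. Leaving out only the 4 HD arrays gave 8697, and leaving out only the 3 HD-recovery arrays gave 384. The 9 genes passed without the arrays that stood apart, where 18% of all probe sets passed as higher, at log2 differences of 0.23 (Gli2) to 0.80 (Ccl5). The labels number the replicates of each group up to 20, and replicates 1 to 10 alone (9 HD and 10 HD-recovery arrays) gave no probe set past the test, while replicates 11 to 20 alone gave 8834, or 30.2%. The 9 genes had positive log2 differences in both sets, 0.15 to 0.50 in replicates 1 to 10 and 0.17 to 0.69 in replicates 11 to 20. They were chosen for their increase over these same arrays, so the shared sign is no independent support.

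Over the same span without HD, no probe set passed the test (limma, smallest q = 0.38, with 1905 at an unadjusted p under 0.05, or 6.52%). The 9 genes had log2 differences of −0.07 to 0.20 between water-recovery and water, the highest of them Ccl5 at 0.20 (SE 0.09), and none passed (lowest q = 0.65). The change in exposed rats exceeded that in water rats by 0.22 to 0.53 on the log2 scale for the 9 genes, which were chosen for their increase in these exposed rats, so this is no independent support. This difference of the changes, tested in 1 fit of the 4 groups, passed for no probe set on the array (smallest q = 0.46, 987 at an unadjusted p under 0.05, or 3.38%). Without the arrays that stood apart, 16591 probe sets (56.8%) passed for the difference of the changes and none for water-recovery against water. In replicates 1 to 10 alone, 9627 (33%) passed for water-recovery against water.

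Genes with the smallest p for the difference of the changes, none of which passed, were Rps6ka5 (log2 difference of the changes 0.35, SE 0.08), Wdr7 (0.53, SE 0.13) and Ptdss1 (0.22, SE 0.06) among the 9, with Spsb3 (0.42, SE 0.10), Ctxn1 (0.59, SE 0.15) and Erc1 (0.69, SE 0.19). Spsb3 is an adaptor of a ubiquitin ligase and Erc1 a scaffold of the secretory machinery. On the negative side were Clu (−1.14, SE 0.26), Alox15b (−0.46, SE 0.12), Ccser1 (−0.27, SE 0.08), Sh2d4a, Hdgfl1 and Stx11 (−0.24, SE 0.08), a syntaxin of granule release in lymphocytes.

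**Figure D2:**
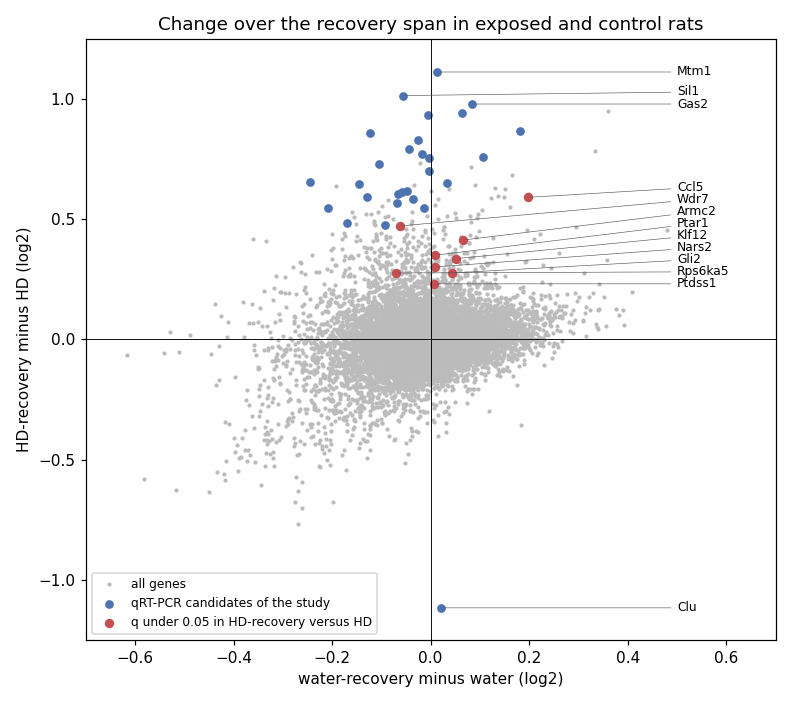
Each point is a gene, with the log2 difference of water-recovery minus water on the x axis and of HD-recovery minus HD on the y axis. The 9 genes past the test (red) lie at 0.23 to 0.59 on the y axis and −0.07 to 0.20 on the x axis, and Clu lies alone at −1.12 on the y axis and 0.02 on the x axis; the candidates (blue) were chosen by the study on the same HD arrays.

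No gene was lower after recovery by the test. The 6 of smallest p among the lower genes all had a q over 0.05 with all 39 arrays. Clu (clusterin), a secreted chaperone made by Sertoli cells, had the widest spread of these 6. Its values ran from 7.26 to 11.30 (median 7.73) in HD and from 6.80 to 7.95 (median 7.01) in HD-recovery, and 19 of the 20 HD-recovery arrays lay below every HD array. The log2 difference was −1.12 (SE 0.25, q = 0.073), and it was −0.61 without the arrays that stood apart. Water-recovery and water had means of 7.06 and 7.04, close to the 7.04 of HD-recovery.

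Alox15b, a lipoxygenase that makes oxidised fatty acids, ran from 6.80 to 9.12 (median 7.22) in HD and from 6.55 to 7.03 (median 6.82) after recovery. No HD-recovery array reached the HD median, and the log2 difference was −0.51 (SE 0.11, q = 0.069). Sh2d4a, an SH2 domain adaptor, had medians of 6.17 in HD and 5.93 in HD-recovery, with 11 HD-recovery arrays below the lowest HD array. Hdgfl1, Armcx1 and Rgs6, a regulator of G protein signalling, had log2 differences of −0.27, −0.21 and −0.17. Without the arrays that stood apart, where 39.9% of all probe sets passed as lower, the 6 had log2 differences of −0.61 (Clu) to −0.21.

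**Figure D3:**
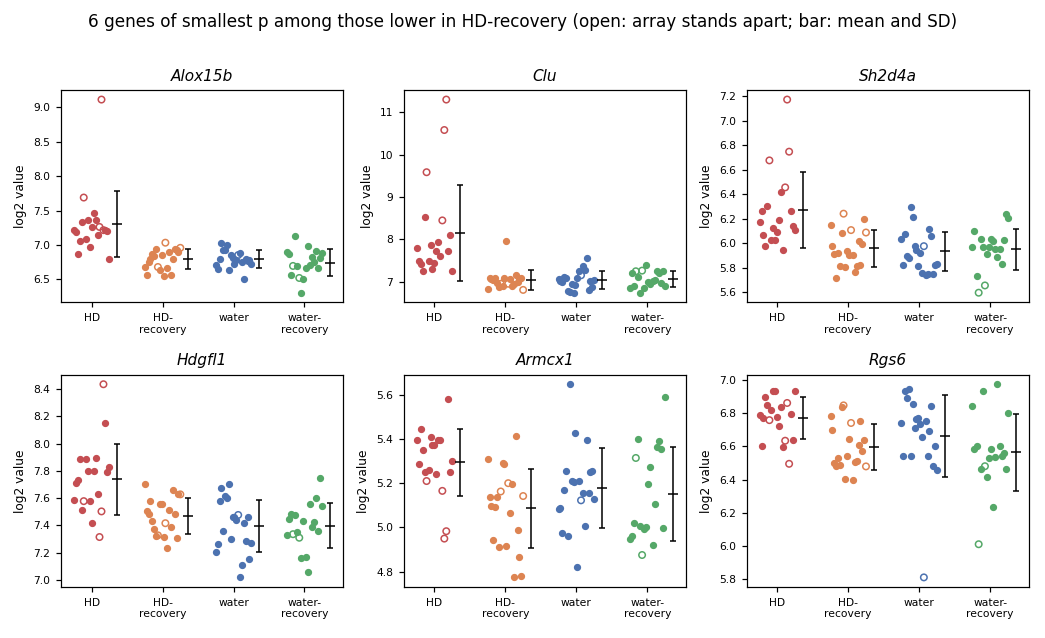
Log2 value (y axis) of the 6 genes of smallest p among those lower in HD-recovery, by group (x axis), with 1 point per rat, open circles for arrays that stand apart, and the mean and SD as bars. HD has the highest mean in each panel, none of the 6 passed the test with all arrays, and the highest Clu value of HD is 11.30.

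Markers of leukocytes lay mostly on 1 side. Of 86 measured leukocyte and macrophage markers, 76 had a higher mean in HD-recovery than in HD, beside 46.3% of all genes. Of the 86, 41 were higher at an unadjusted p under 0.05 and none lower, against 8.56% of all genes in either direction. This list and those below were chosen with earlier results of these data known. Some members, such as Ccr2 and Lyz2, the study picked out on these HD arrays. Shares set beside those of all genes are therefore no independent support. Only Ccl5 passed the test. The median log2 difference of the list was 0.13, beside −0.01 for all genes. Ccr2, the chemokine receptor of monocytes, had a log2 difference of 0.47 (SE 0.10, q = 0.069), Klrd1, a receptor of natural killer cells, 0.34 (SE 0.08, q = 0.11), and Cd2, an adhesion protein of T cells, 0.22 (SE 0.06, q = 0.16). Water-recovery against water had a list median of 0.05, with 64 of the 86 positive, beside 7073 of all 14506 genes.

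The mean level of the leukocyte list per array was 7.07 ± 0.18 (SD, n = 19) in HD, with a range of 6.83 to 7.53, and 7.26 ± 0.21 (SD, n = 20) in HD-recovery, with a range of 6.95 to 7.78. It was 7.29 ± 0.15 (SD, n = 20) in water and 7.33 ± 0.22 (SD, n = 18) in water-recovery, so HD had the lowest mean and all 4 groups overlapped. The defining marker Ptprc had means of 7.66 in HD and 8.09 in HD-recovery. With this mean as a covariate, none of the 9 genes passed (q from 0.098 to 0.19), and their log2 differences were 0.20 to 0.28. The list mean includes Ccl5 itself and differed between HD and HD-recovery. The fit therefore cannot measure the part of leukocyte RNA in the 9 differences, which was not tested. Without the arrays that stood apart, 50 of the 86 leukocyte markers were higher and 6 lower. Of all 14506 genes, 3584 were higher and 4895 lower in this setting.

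Red blood cell genes lay in the same direction without passing. Of 23 erythroid markers, 7 were higher and 1 lower at an unadjusted p under 0.05, against 8.56% of all genes, and the list median was 0.07. Hbb had a log2 difference of 0.95 (SE 0.27, q = 0.24), Alas2, the first enzyme of haem synthesis in red cells, 0.60 (SE 0.17, q = 0.18), Ahsp, which stabilises free alpha globin, 0.25 (SE 0.06, q = 0.14), and Slc4a1, the anion exchanger of the red cell membrane, 0.23 (SE 0.06, q = 0.20). The mean level of the erythroid list was 6.90 ± 0.12 (SD, n = 19) in HD and 7.06 ± 0.11 (SD, n = 20) in HD-recovery, beside 7.03 in water and 7.08 in water-recovery. Without the arrays that stood apart, 10 of the 23 were higher and 6 lower at q under 0.05, with a list median of 0.03. In that setting 3584 of all 14506 genes were higher and 4895 lower at q under 0.05.

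Of 37 fibroblast and connective tissue markers, 9 were higher and none lower at an unadjusted p under 0.05, against 8.56% of all genes in either direction, and none passed. The list median was 0.04 (0.02 without replicate 2 of HD-recovery). Water-recovery against water had a list median of 0.03, with 3 higher and none lower at an unadjusted p under 0.05. The median difference of the changes was 0.01. Dcn (decorin), a proteoglycan that binds collagen and a candidate of the study, had a log2 difference of 0.76 (SE 0.24, q = 0.31). Pi16 had 0.19 (SE 0.06, q = 0.31) and Mfap4, a protein of elastic fibres, 0.15 (SE 0.05, q = 0.37). Without the arrays that stood apart, 15 of the 37 were higher and 12 lower at q under 0.05, where 3584 and 4895 of all 14506 genes were. The list median was then −0.03. Smooth muscle and endothelium markers had none of 21 at an unadjusted p under 0.05 in either direction, with a median of −0.04 (−0.02 without replicate 12 of HD).

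**Figure D4:**
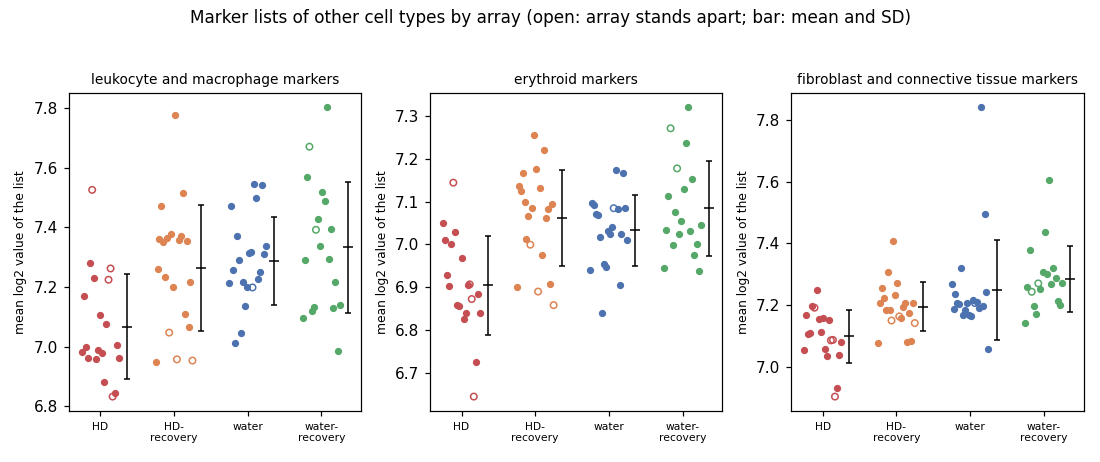
Mean log2 value of 3 marker lists (y axes) in each array, by group (x axes), with open circles for arrays that stand apart and the mean and SD as bars. HD has the lowest mean for each list, at 7.07, 6.90 and 7.10, and the groups overlap.

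The transcripts that the study had picked for qRT-PCR had means after recovery that lay nearer to those of the water rats, but none passed the test. Of 29 candidates 28 were measured, and 27 had a higher mean in HD-recovery than in HD and 1, Clu, a lower one. All 28 had an unadjusted p under 0.05, and q ran from 0.073 to 0.59. The study chose them on these HD arrays, so a difference between HD and any other group was built into the list and is no independent evidence. The median log2 difference was 0.68 between HD-recovery and HD and −0.04 between water-recovery and water. The HD-recovery mean lay between those of HD and water for 26 of the 28, with a median distance of −0.17 from water, where HD had −0.87. In this list 27 HD-recovery means were also below those of water-recovery.

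Mtm1 (myotubularin), a phosphatase of phosphoinositide lipids, had the largest log2 difference at 1.11 (SE 0.25, q = 0.073), with means of 8.41 in HD and 9.53 in HD-recovery. Sil1, which recharges the endoplasmic reticulum chaperone BiP, had 1.01 (SE 0.26, q = 0.13), and Gas2, a protein that links actin and microtubules, had 0.98 (SE 0.22, q = 0.073). Ptgds, a prostaglandin synthase that the epididymis secretes, had 0.94 (SE 0.23, q = 0.11), Lyz2, lysozyme of macrophages, 0.87 (SE 0.26, q = 0.27), and Pim1, a kinase that promotes survival, 0.79 (SE 0.24, q = 0.28). The smallest of the positive differences was 0.48, for Sod3, an extracellular superoxide dismutase (q = 0.59).

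The candidates also differed between sets of replicate numbers. The median log2 difference over the 28 was 0.18 in replicates 1 to 10 and 1.20 in replicates 11 to 20, and 1.19 when the arrays that stood apart were left out. The mean level of the 27 candidates other than Clu was 8.58 ± 0.67 (SD, n = 9) in HD and 8.81 ± 0.73 (SD, n = 10) in HD-recovery for replicates 1 to 10. It was 8.44 ± 0.62 (SD, n = 10) in HD and 9.66 ± 0.44 (SD, n = 10) in HD-recovery for replicates 11 to 20. The gap between the sets was thus mostly in the HD-recovery arrays. In replicates 1 to 10 without the arrays that stood apart, a setting chosen after seeing the data, the median was 0.84 and none of the 28 passed. With the leukocyte mean as a covariate over all 39 arrays the median was 0.09.

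With all 39 arrays, no gene passed in the sperm lists of sheath and fibres, chromatin condensation, acrosome, glycolysis and ion channels. The medians of these lists, below 0 with all 39 arrays, depended on the arrays used. Of 25 genes of the fibrous sheath and outer dense fibres, which stiffen the tail, 7 were lower and 1 higher at an unadjusted p under 0.05, against 8.56% of all genes (median −0.19). Akap4, the main anchoring protein of the fibrous sheath, had a log2 difference of −0.63 (SE 0.23, q = 0.41), Fscb −0.42 (SE 0.14, q = 0.31) and Odf4 −0.48 (SE 0.18, q = 0.46), while Oaz3, an antizyme of spermatids, had 0.43 (SE 0.17, q = 0.49). The water rats had the same sign over the same span, at −0.45 (SE 0.21) for Akap4 and −0.33 (SE 0.13) for Fscb, with a list median of −0.09. The mean level of this list was 8.65 ± 0.47 (SD, n = 19) in HD, where 1 array reached 10.24, and 8.48 ± 0.26 (SD, n = 20) in HD-recovery. The list median moved to −0.10 without replicate 5 of HD. Once the arrays that stood apart were left out, 9 genes of the list were higher and 9 lower at q under 0.05. Of all 14506 genes, 3584 were then higher and 4895 lower at q under 0.05.

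Of 13 genes of chromatin condensation, 2 were higher and 1 lower at an unadjusted p under 0.05, against 8.56% of all genes. The median was −0.12, or −0.04 without replicate 5 of HD and 0.01 without the arrays that stood apart. Prm1 had a log2 difference of 0.25 (SE 0.11, q = 0.54), Tnp2, a transition protein that precedes the protamines, 0.39 (SE 0.16, q = 0.54), and Ccin, a cytoskeletal protein of the sperm head, −0.54 (SE 0.21, q = 0.47). Of 19 acrosome and egg binding genes, 18 had a negative difference, beside 7794 of all 14506 genes. Their median was −0.17, or −0.06 without replicate 5 of HD. Adam3a had −0.47 (SE 0.20, q = 0.56), Crisp2 −0.37 (SE 0.18, q = 0.64) and Zpbp, the 1 positive gene, 0.52 (SE 0.21, q = 0.52). The 20 sperm glycolysis genes had a median of −0.13 in exposed rats and also −0.13 in water rats, with a median difference of the changes of −0.01. Their median in exposed rats was 0.04 without the arrays that stood apart and 0.05 in replicates 11 to 20. Among them Pfkm had −0.20 (SE 0.06, q = 0.26), Ldhal6b −0.21 (SE 0.07, q = 0.31) and Tpi1, a candidate of the study, 0.55 (SE 0.20, q = 0.43). Among ion channels and transporters Atp1a4, the sodium pump of sperm, had −0.52 (SE 0.18, q = 0.38).

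Genes of the axoneme and of cilium assembly, 42 in all, held Armc2 as the only member past the test, 1 of 42 beside 0.0308% of all probe sets. Another 8 were higher and 2 lower at an unadjusted p under 0.05, against 8.56% of all genes. Dnaaf11, which helps to assemble dynein arms, had a log2 difference of 0.86 (SE 0.23, q = 0.16), Ift81, a carrier of tubulin in the growing tail, 0.59 (SE 0.17, q = 0.24), and Sclt1, a protein of the centriole, 0.58 (SE 0.15, q = 0.15). All 3 are candidates that the study chose on these HD arrays, so their differences from HD are not independent of that choice. The list median was −0.03 (0.01 without replicate 5 of HD). In water rats the 3 had −0.12, −0.13 and −0.04. Of 34 tubulins and microtubule proteins, the structures that HD disturbs in Sertoli cells, none was higher and 3 lower at an unadjusted p under 0.05, a share near the 8.56% of all genes. Tubb3 was among them, at −0.17 (SE 0.06, q = 0.47).

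Stress and survival genes included several of the candidates that the study chose on these HD arrays, namely Sil1, Bag1, Dnajb4, Gas2, Pim1, Tax1bp1, Bfar and Sod3. At an unadjusted p under 0.05 lay 8.56% of all genes. Of 45 heat shock and chaperone genes, 4 were higher at an unadjusted p under 0.05, namely Sil1, Dnajc15 at 0.59 (SE 0.18, q = 0.28), Bag1 at 0.70 (SE 0.23, q = 0.34) and Dnajb4 at 0.62 (SE 0.24, q = 0.49), and 2 were lower. Of 33 apoptosis and survival genes, 5 were higher and none lower, among them Gas2, Pim1, Tax1bp1 at 0.65 (SE 0.22, q = 0.35) and Bfar, an inhibitor of apoptosis, at 0.60 (SE 0.22, q = 0.41). The list medians were −0.04 (0.01 without replicate 5 of HD) and 0.03 (0.01 without replicate 5 of HD). Of 33 antioxidant and glutathione genes (median 0.02, or 0.06 without replicate 4 of HD), Txndc2, a thioredoxin of the sperm tail, had −0.30 (SE 0.10, q = 0.31) and Gpx3, an extracellular peroxidase, 0.25 (SE 0.10, q = 0.47).

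Markers of the testis cells that HD injures lay mostly below 0, as did those of some other cells. Of 22 Sertoli cell markers, which include Clu, 18 had a negative difference, beside 7794 of all 14506 genes. So had 9 of 10 Leydig cell markers and 16 of 21 smooth muscle and endothelium markers, while 76 of 86 leukocyte markers were positive. The Sertoli list had mean levels of 6.92 in HD and 6.82 in HD-recovery. The means were 6.51 and 6.45 for the Leydig list and 6.66 and 6.64 for smooth muscle and endothelium. These levels lay near the array medians of 6.51 to 6.78, so they do not by themselves show that the transcripts were present. At an unadjusted p under 0.05, 4 Sertoli cell markers were lower and 1 higher, against 8.56% of all genes. The median of the Sertoli list was −0.06, or −0.03 without replicate 5 of HD. Gdnf, a growth factor for the stem cells of the testis, had −0.16 (SE 0.05, q = 0.34), Shbg, which binds androgens, −0.18 (SE 0.07, q = 0.46), and Vim (vimentin), which other cells also express and which is a candidate of the study, 0.55 (SE 0.21, q = 0.47). Of the junction genes between Sertoli and germ cells, Abi2, an actin regulator and a candidate of the study, had 0.48 (SE 0.17, q = 0.41). Among meiosis and spermatid RNA genes, with list medians of −0.05 and −0.04, Mael, a piRNA pathway protein, had −0.77 (SE 0.29, q = 0.46). Pabpc2 had −0.60 (SE 0.24, q = 0.52) and Papolb, a testis poly(A) polymerase, −0.50 (SE 0.19, q = 0.47). Strbp, which binds RNA in spermatids and is a candidate of the study, had 0.57 (SE 0.21, q = 0.44). With arrays left out in turn, the values nearest 0 were −0.54 for Mael, −0.43 for Pabpc2, −0.35 for Papolb and 0.50 for Strbp. Among 33 cell cycle genes, Bub1b had 0.23 (SE 0.07, q = 0.26), Ccnd2 0.27 (SE 0.10, q = 0.37) and Aurka −0.15 (SE 0.05, q = 0.44), with a list median of −0.04 (−0.07 without replicate 2 of HD). Krt19, a keratin of the epididymal epithelium, had −0.26 (SE 0.10, q = 0.46).

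The sign of the housekeeping lists depended on which arrays were used. The 69 cytosolic ribosomal proteins had a median log2 difference of 0.02 over all 39 arrays, −0.22 in replicates 1 to 10 and 0.25 in replicates 11 to 20. The 60 oxidative phosphorylation genes had −0.02, −0.23 and 0.25 in the same order, and the 37 proteasome genes 0.00, −0.18 and 0.14. When the arrays that stood apart were left out, 43 of the 69 ribosomal genes were higher and 5 lower at q under 0.05. In that setting and at that threshold 42 of the 60 oxidative phosphorylation genes were higher and 4 lower. Of the 37 proteasome genes, 22 were higher and 0 lower. Beside them, 3584 of all 14506 genes were higher and 4895 lower. Replicates 3, 4, 14 and 5 of HD ranked 1, 2, 3 and 5 for the mean ribosomal level among the 19 HD arrays, and replicates 9 and 2 of HD-recovery were the 2 lowest of 20.

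**Figure D5:**
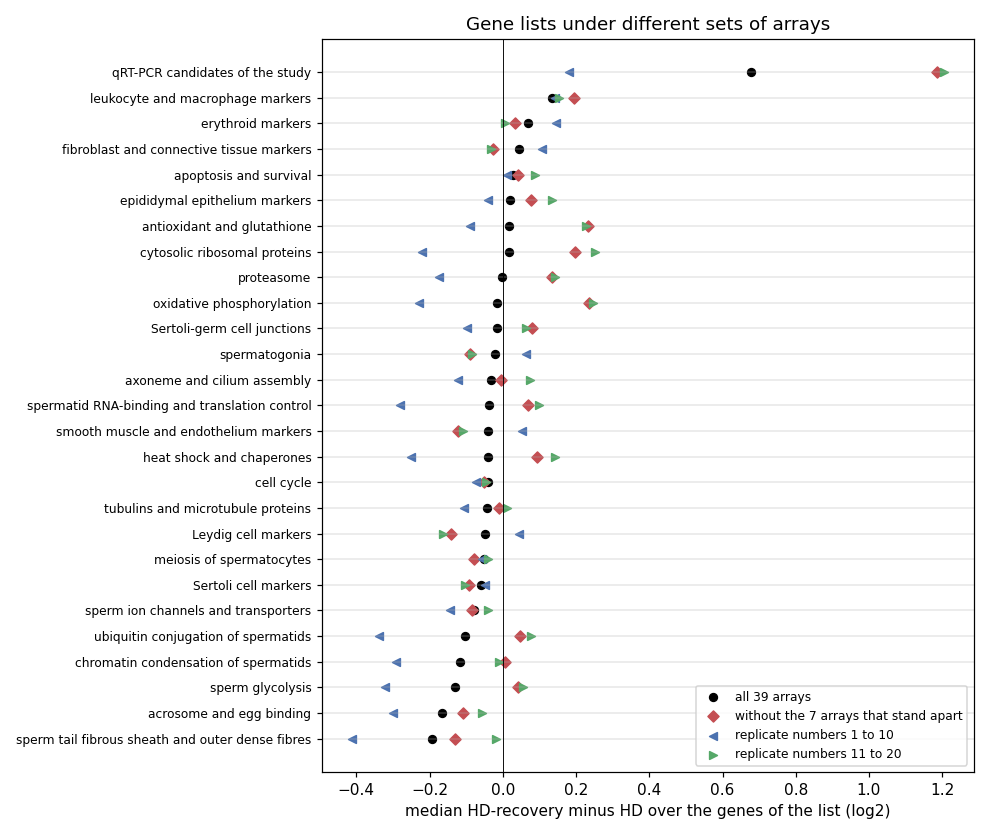
Median log2 difference of HD-recovery minus HD over the genes of each list (x axis; 1 line per list), for all 39 arrays, without the 7 arrays that stand apart, and for replicates 1 to 10 and 11 to 20. The leukocyte list stays between 0.13 and 0.19 in all 4, while the ribosomal list runs from −0.22 to 0.25 and the candidates, chosen by the study on the same HD arrays, from 0.18 to 1.20.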

How the data were processed

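Sperm RNA of 77 rats was measured on Affymetrix Rat Gene 1.0 ST arrays. The authors deposited 1 table of log2 values (2.51 to 14.63) normalized by earlier published procedures, whose details the labels and methods read here do not give. The log2 scale was taken from this range. Of 29214 probe sets, 15310 carried 1 symbol in the platform annotation, 323 several and 13581 none. Groups came from the sample labels. Fits used limma 3.58.1 in R 4.3.3, following the study's methods, on the arrays of the groups compared, with Storey q-values computed over all probe sets and a threshold of 0.05. The difference of the changes was fitted on the 4 groups together. Genes were named by a rule: those past the threshold, up to 12 in each direction, or where none passed the 6 of smallest p, up to 4 of smallest p in each of 27 lists, and the study's qRT-PCR candidates. For the difference of the changes the 6 of smallest p in each direction were named. The members and lists were chosen with earlier results of these data known. Alternatives were other adjustments, scalings, filters, weights, covariates and sets of arrays, with 4 sets added after seeing the data. The code was tested on simulated data. The number of arrays limits the precision. Promoters came from RefSeq (GRCr8). Figures were drawn with matplotlib 3.10.9 in Python 3.11.15. The labels name 1 RNA sample per biological replicate.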

Additional observations from a re-analysis of the deposited data

How the results depend on the processing

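The 9 genes higher after recovery had positive differences in every setting tried, but they were chosen for their increase in these same arrays. The number of probe sets past the threshold moved with nearly all of the settings. Against 9, there were 1 with array medians centred, 51 with quantile normalization (45 higher and 6 lower, against 9 and 0), 902 with a covariate for the first principal component, 12986 with array weights, 0 with the leukocyte mean as a covariate, 16922 when the arrays that stood apart were left out, 41 with the 2 sets of replicate numbers as a term, 0 in replicates 1 to 10, 8834 in replicates 11 to 20, 45 with the 4 groups in 1 fit and 1 with a fold over 1.5. Benjamini-Hochberg adjustment gave 9. Storey's estimated share of unchanged probe sets was 1, which makes the Storey and Benjamini-Hochberg values the same, so this 9 was fixed in advance. Leaving out dim probe sets gave 10. Settings added after seeing the data gave 0 and 19363 in the 2 sets without the arrays that stood apart, 8697 without the HD arrays that stood apart and 384 without such HD-recovery arrays. Leaving out each array in turn gave 0 to 88. For water-recovery against water, where none passed, there were 358 with the first principal component, 587 with the leukocyte mean and 9627 in replicates 1 to 10, and 0 to 1 when arrays were left out in turn (1 without replicate 11 of water). For the difference of the changes, with none, there were 356 with the first principal component, 9833 with array weights and 16591 when the arrays that stood apart were left out, with 0 in each fit without 1 array. The cause of these changes was not tested.

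Replicate numbers are shared by the groups. Of 19 same-numbered pairs of HD and HD-recovery, 10 had deviations correlated above 0.1 (median 0.19), and 2 correlated best with their own number. In the water groups 6 of 18 pairs were above 0.1 (median −0.02). The numbers were therefore not taken to pair the rats, and whether same-numbered arrays share something else was not tested. With the replicate number as a block, 27 probe sets passed in HD-recovery against HD (23 higher, 4 lower), the 9 among them, and none in the other comparisons. A few genes that had not passed changed sign. With the leukocyte mean as a covariate these were Vim (−0.052) and Bcl2l14 (−0.007). In replicates 1 to 10 they were Ccser1 (0.045), Tnp2 (-5e-04), Zpbp (−0.13), Bfar (−0.027) and Strbp (−0.036).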

Other observations

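Just outside the threshold, 12 more genes had a q between 0.05 and 0.1, and they are named here after their values were seen. Of these, 10 had a higher mean in HD-recovery and 2, Alox15b and Clu, a lower one, and 7 stand in the study's table of transcripts altered by exposure. Aarsd1, which resembles the editing domain of an alanyl-tRNA synthetase, was the nearest at q = 0.055 with a log2 difference of 0.36 (SE 0.08), and 18 of 20 HD-recovery arrays lay above the HD median. Xcl1, a chemokine of T cells and natural killer cells, had 0.26 (SE 0.06, q = 0.073), and Slfn4, a gene of myeloid cells, 0.36 (SE 0.08, q = 0.099). Tph2, an enzyme of serotonin synthesis, had 0.22 (SE 0.05, q = 0.073) and Prcc, a nuclear protein, 0.23 (SE 0.05, q = 0.099). The same range of q held 10 probe sets with no single gene symbol.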
